A study of Homo sapiens with 24 samples.

Results

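Parental cultures of the head and neck squamous cell carcinoma lines FaDu and SQ20B were compared with each other, gene by gene, on 3 Illumina expression arrays of each line, 6 of the 24 arrays of the series. The members are every probe with 1 gene symbol that was detected, at a detection p under 0.05, on at least 3 of the 12 arrays that hold both lines. There were 17424 such probes for 12934 genes, and a gene was read through its brightest probe. FaDu derives from a carcinoma of the pharynx and SQ20B from a carcinoma of the larynx, and both parental lines are labelled as sensitive to erlotinib, an inhibitor of the EGFR tyrosine kinase. Both were grown in the same high-glucose DMEM with fetal bovine serum and seeded at 200000 cells, and both received 0.01% DMSO, the vehicle, for 48 h before total RNA was taken. The erlotinib-resistant derivatives of both lines, kept in medium with erlotinib and given the same DMSO, had 3 arrays each and served for normalization and for a repeat of the comparison. The labels do not say whether the 3 arrays of a line came from separate cultures, so p-values measure only the spread between these arrays. With 1 line per anatomical site, a difference between the lines, between their donors and between pharynx and larynx cannot be told apart.

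Stratified squamous epithelium of the throat is kept by basal cells that express keratins 5 and 14 and signal through EGFR, which is driven by ligands such as TGF-alpha, amphiregulin and epiregulin and passes its signal to ERK. Carcinomas of this tissue often carry extra copies of the chromosome band with the cyclin D gene CCND1, and often lose control of G1. YAP, a cofactor of the TEAD transcription factors, and TGF-beta, which acts through SMAD4, are known in such cells for genes of the cytoskeleton, the matrix and invasion. Type I interferon is known for a common programme of antiviral genes, switched on through the transcription factor complex ISGF3 at a DNA element called ISRE.

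The 6 arrays were alike within a line. Across tested genes, which are not independent replicates, arrays of the same line correlated at 0.9925 to 0.9932 in FaDu and 0.9922 to 0.9934 in SQ20B, against 0.9128 to 0.9156 between the lines. Between 41.5% and 42.3% of all probes were detected on a FaDu array and between 39.8% and 40.7% on an SQ20B array, and no array stood apart from its line. Of 9 squamous markers on the array, 9 were detected on every FaDu array and 7 on every SQ20B array. KRT14 and PKP1 were the squamous markers not detected in SQ20B. Of 5 general epithelial markers, 4 were detected on every array of both lines. KRT18 was the exception, detected on 0 FaDu arrays and 1 SQ20B array through its probe. Of 25 markers of leukocytes, endothelium, melanocytes, neuroendocrine cells, liver, muscle, glia and red cells, 16 were detected on no FaDu array and 15 on no SQ20B array. Among those that were, CD14 was 8.94-fold higher in FaDu and CDH5 4.20-fold higher in SQ20B. The leukocyte marker CD68 and the endothelial marker VWF were also detected on every array of both lines. PMEL was detected on 3 FaDu arrays and 1 SQ20B array, and ALB on 2 and 3. PTPRC and KDR, among others, were detected in neither line.

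Values are log2 intensities after background correction and quantile normalization. A difference is FaDu minus SQ20B on that scale, ± its standard error from limma with 3 arrays of each line, so that a positive value is higher in FaDu. Each adjusted p comes from limma and was adjusted by Benjamini-Hochberg for all 17424 tested probes. Where a probe was detected on none of the 3 arrays of a line, the fold is a lower bound and is written "at least". The bound divides the mean of the brighter line by the dim line's mean, in which no array counts as lower than the dimmest detected probe on it. Counts of genes past a fold use the fitted difference, not the bound, so 127 of the 459 genes counted as 2-fold with such a bound have a bound under 2-fold. Where a probe was detected on only part of the 3 arrays of a line, the fold is the fitted one. It is then partly set against background and not exact. Among such genes, MACROH2A2, HOXD11, PRAME and ZDHHC21 were detected on 1 SQ20B array, and AJUBA and MUC16 on 1 FaDu array. CYP26A1, IL1RN, GJB2, COL6A1 and CSTA were also detected on 1 SQ20B array. FOS, CFB, TGM1, HOXC4, PDGFA and STARD4 were detected on 2 SQ20B arrays, and PLAC8, CRIM1, ABCC2 and FOXE1 on 2 FaDu arrays.

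The lines differed widely. Of 12934 genes, 7530 (58.2%) had an adjusted p under 0.05, 3962 (30.6%) of them higher in FaDu and 3568 (27.6%) higher in SQ20B. With at least a 2-fold difference as well, 2268 genes (17.5%) remained, 1132 (8.75%) higher in FaDu and 1136 (8.78%) higher in SQ20B. These last 2 shares are the background against which the 2-fold counts of each gene group are set. Counts without the size criterion are to be read against 30.6% higher in FaDu and 27.6% higher in SQ20B. The count of 2-fold genes depends on the background correction and was 1037 without it. The median absolute difference over all genes was 0.41 and the 90th percentile 1.37 on the log2 scale. At least a 4-fold difference was found for 281 genes higher in FaDu and 311 higher in SQ20B, and at least 16-fold for 27 and 37. The 3 FaDu arrays lay all above or all below the 3 SQ20B arrays for 8431 genes (65.2%). There were 445 genes detected on all FaDu arrays and no SQ20B array, and 285 with the opposite pattern.

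Of the 24 largest differences, 12 in each direction, 11 were of genes detected on no array of 1 line. CD24, a surface glycoprotein of epithelial cells, read 5.43, 5.31 and 5.19 on the FaDu arrays and 11.47, 11.65 and 11.59 on the SQ20B arrays, a difference of -6.25 ± 0.10 (limma adjusted p = 4.2e-08), or 76.3-fold higher in SQ20B. INHBB, the beta B subunit of activins and inhibins, read 4.69, 4.72 and 4.89 in FaDu, where 1 of 3 arrays detected it, and 10.94, 10.74 and 10.73 in SQ20B, 65.5-fold higher in SQ20B. For both genes the arrays of a line lay close together and far from the other line. UBQLN2, a ubiquilin that delivers proteins to the proteasome, read 4.23, 4.23 and 4.35 in FaDu and 10.13, 10.26 and 10.30 in SQ20B, at least 41.8-fold higher in SQ20B. It was detected on no FaDu array. The other SQ20B genes among the 12 largest were PLAC8 (55.5-fold), the aldehyde dehydrogenase ALDH7A1 (at least 48.8-fold), the mitochondrial calcium-binding EFHD1 (at least 34.3-fold), the P-body microprotein NBDY (at least 34.2-fold), CCDC9B (42.8-fold), the G protein regulator RGS7 (at least 29.7-fold), tissue transglutaminase TGM2 (40.2-fold), the small heat shock protein HSPB8 (at least 28.3-fold) and the membrane protein SUSD2 (38.7-fold).

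On the FaDu side, GPX2, a glutathione peroxidase of epithelia, read 11.08, 11.18 and 11.23 in FaDu and 5.07, 5.47 and 5.59 in SQ20B, a difference of 5.79 ± 0.14 (limma adjusted p = 1.0e-07) or 55.3-fold. GLDC, the glycine-cleaving decarboxylase of mitochondria, read 10.06, 10.13 and 10.03 in FaDu and 4.29, 4.34 and 4.34 in SQ20B, where no array detected it, and was at least 35.8-fold higher in FaDu. Neither gene's groups came near each other. IFI44, HERC5, OASL and IFI27, 4 interferon-induced genes, were also among the 12 largest. The others were PLBD1 (at least 31.7-fold), EPDR1 (41.3-fold), the histone variant MACROH2A2 (33.9-fold), the axonemal dynein regulator DRC9 (33.4-fold), HENMT1, which methylates piRNAs (at least 24.4-fold), and beta-adducin ADD2 (at least 20.7-fold).

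**Figure D1:**
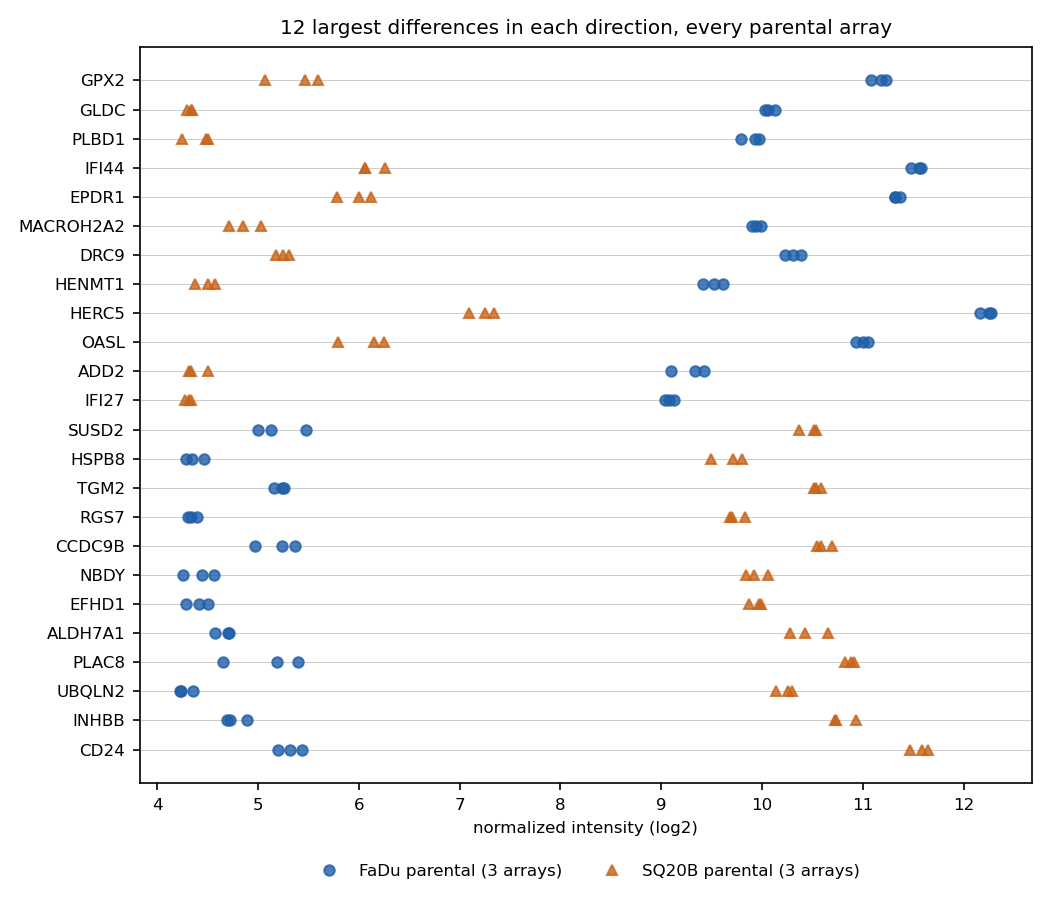
Log2 normalized intensity (horizontal axis) of the 24 genes with the largest differences on every parental array, FaDu as circles and SQ20B as triangles, 3 arrays each. In each gene the 3 arrays of a line lie close together and far from the other line. Values near 4 to 5 are not above background on most arrays, and different genes' probes are not comparable in level.

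Members of 36 gene lists were set beside those background shares. The lists held 753 distinct measured genes, of which 261 differed at least 2-fold. By the share of 2-fold members, the list furthest toward FaDu was the type I interferon response and the list furthest toward SQ20B was the YAP targets.

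**Figure D2:**
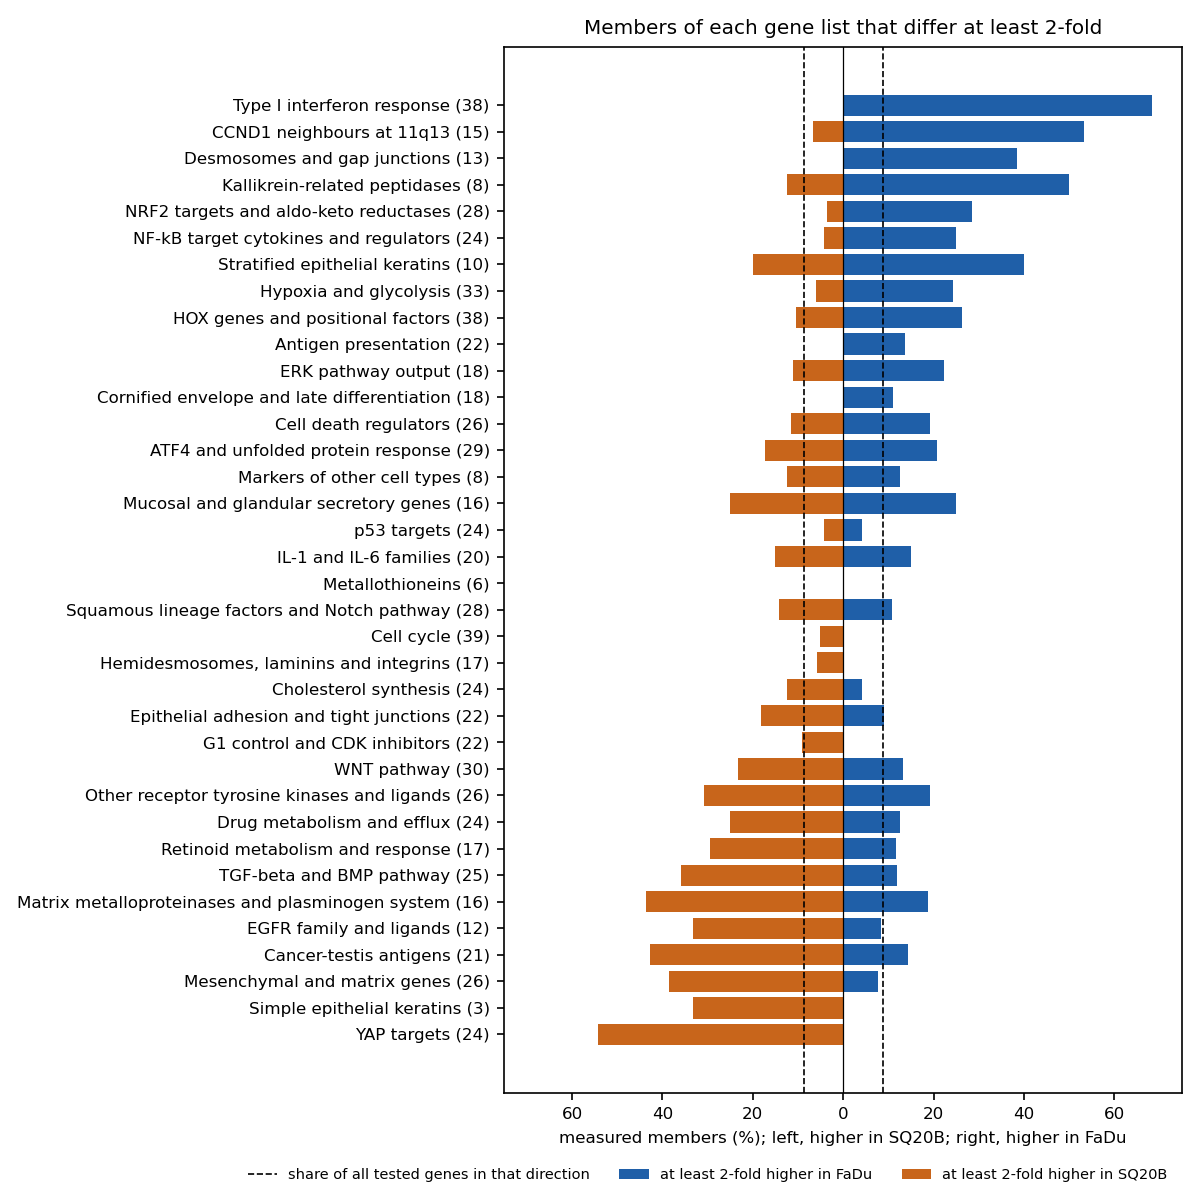
Share of the measured members of each gene list (number in brackets) that had an adjusted p under 0.05 and at least a 2-fold difference, in percent, to the right for genes higher in FaDu and to the left for genes higher in SQ20B. Dashed lines mark the shares over all 12934 genes, 8.75% and 8.78%. The interferon bar reaches 68.4% to the right with nothing to the left, and the YAP bar reaches 54.2% to the left with nothing to the right.

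Interferon-stimulated genes were higher in FaDu almost as a block. Of the 38 measured members, 26 were at least 2-fold higher in FaDu and 0 in SQ20B, and the median difference was 1.40 against 0.03 over all genes. Without the size criterion, 36 were called higher in FaDu and 1 higher in SQ20B. IFI44 read 11.47, 11.58 and 11.56 in FaDu and 6.06, 6.06 and 6.26 in SQ20B, a difference of 5.41 ± 0.09 (limma adjusted p = 4.3e-08). HERC5, the ligase that attaches the ubiquitin-like protein ISG15, read 12.28, 12.25 and 12.16 in FaDu and 7.09, 7.34 and 7.26 in SQ20B, 32.0-fold higher in FaDu. OASL, a relative of the RNA-sensing oligoadenylate synthetases, read 11, 10.93 and 11.06 and 6.25, 5.80 and 6.15, 30.5-fold higher in FaDu. IFI27 read 9.07, 9.13 and 9.04 in FaDu and was detected on no SQ20B array, where it read 4.31, 4.27 and 4.34, and was at least 18.0-fold higher in FaDu. In all 4 genes the lowest FaDu array lay far above the highest SQ20B array. The member called higher in SQ20B was IFITM1, a membrane protein that blocks virus entry, at -0.50 ± 0.08, and the member not called was the interferon regulatory factor IRF7 at 0.03 ± 0.10 (adjusted p = 0.79). Both were named after their values were seen.

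The 250 bases before the transcript start of 3 of these genes are shown because they hold the letters of an ISRE core. The motif searched was GAAA, 2 bases of any kind and GAAA again, on both strands, with overlapping matches allowed, in promoters from RefSeq on GRCh38.p14. Capitals mark a match on either strand, and each sequence runs 5′ to 3′ along the gene's strand.
IFI44, chr1:78649539-78649788 (plus strand): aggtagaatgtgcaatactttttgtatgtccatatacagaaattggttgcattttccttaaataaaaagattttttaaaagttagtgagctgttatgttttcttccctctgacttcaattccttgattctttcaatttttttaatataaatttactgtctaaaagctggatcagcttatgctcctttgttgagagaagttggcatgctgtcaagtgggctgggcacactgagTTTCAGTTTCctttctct
HERC5, chr4:88456869-88457118 (plus strand): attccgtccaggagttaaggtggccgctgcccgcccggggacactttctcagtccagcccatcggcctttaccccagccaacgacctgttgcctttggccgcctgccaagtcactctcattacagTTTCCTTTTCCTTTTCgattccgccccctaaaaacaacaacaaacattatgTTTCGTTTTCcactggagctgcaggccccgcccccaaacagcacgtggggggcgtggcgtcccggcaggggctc
IFI27, chr14:94110486-94110735 (plus strand): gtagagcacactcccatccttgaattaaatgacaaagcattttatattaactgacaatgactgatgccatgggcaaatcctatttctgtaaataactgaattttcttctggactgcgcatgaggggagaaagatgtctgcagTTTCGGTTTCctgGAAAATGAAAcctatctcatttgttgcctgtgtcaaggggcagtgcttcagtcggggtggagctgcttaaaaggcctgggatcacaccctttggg
The motif was present in 18 of the 29 measured interferon list members with a promoter in the table (62.1%), in 247 of 10277 tested genes (2.40%) and in 839 of all 27305 promoters (3.07%). Among members at least 2-fold higher in FaDu it was present in 12 of 22 (54.5%) and among the others in 6 of 7 (85.7%). A match is a description of letters and no measured binding.

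EGFR itself was far higher in SQ20B. Its brightest probe read 9.59, 9.42 and 9.45 in FaDu and 12.37, 12.37 and 12.50 in SQ20B, a difference of -2.93 ± 0.09 (limma adjusted p = 2.5e-07) or 7.61-fold. A second probe gave -2.96, and 2 further probes, detected on no FaDu array and on 1 and 2 SQ20B arrays, gave -0.44 and -0.40 and were not called. Of 12 measured genes of the EGFR family and its ligands, 1 was at least 2-fold higher in FaDu and 4 in SQ20B. Among the ligands, epiregulin (EREG) went the other way from EGFR, reading 7.07, 7.20 and 7.07 in FaDu and 4.70, 4.65 and 4.76 in SQ20B, where no array detected it, at least 4.59-fold higher in FaDu. Neuregulin 1 (NRG1), a ligand of the sister receptors ERBB3 and ERBB4, was 3.66-fold higher in SQ20B and TGF-alpha (TGFA) 2.24-fold. The other SQ20B gene was ERRFI1, a feedback inhibitor that binds the EGFR kinase, at 2.26-fold. Smaller differences were called for betacellulin BTC (0.99 ± 0.10), the sheddase ADAM17 (0.68 ± 0.09), the receptor suppressor LRIG1 (0.62 ± 0.10) and HBEGF (0.47 ± 0.11), all higher in FaDu. ERBB3 gave -0.39 ± 0.11 and was not called without FaDu replicate 2 (-0.29), without SQ20B replicate 2 (-0.33) and under median scaling (-0.36). ADAM17 was called through its brightest probe, and the mean of its probes, at 0.32, was not called. ERBB2 at 0.17 ± 0.10 (adjusted p = 0.18) and EGF at -0.04 ± 0.16 (adjusted p = 0.87) did not pass the test.

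Among other receptor tyrosine kinases and their ligands, 5 of 26 measured genes were at least 2-fold higher in FaDu and 8 in SQ20B. The receptor AXL and its ligand GAS6 were both higher in SQ20B. AXL read 8.36, 8.04 and 8.16 in FaDu and 11.02, 11.06 and 11.30 in SQ20B, a difference of -2.94 ± 0.12 (limma adjusted p = 9.2e-07), and its other probe gave -2.99. GAS6 differed by -4.14 ± 0.08, or 17.6-fold, and the ephrin ligand EFNB2 was 5.38-fold higher in SQ20B. In FaDu the growth factors FGF2 (4.85-fold), PDGFA (3.52-fold) and VEGFA (3.16-fold) and the receptor FGFR4 (at least 2.85-fold) were higher. Genes that report ERK activity were split, with 4 of 18 at least 2-fold higher in FaDu and 2 in SQ20B. The immediate-early transcription factors FOS (4.93-fold) and EGR1 (4.21-fold) and the inhibitor SPRED1 (3.04-fold) were higher in FaDu, and PHLDA1 (5.64-fold) and the feedback inhibitor SPRY1 (3.28-fold) in SQ20B.

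Control genes of G1 and the neighbours of CCND1 were described member by member. CCND1, cyclin D1, was called higher in FaDu by a modest 0.72 ± 0.09 (limma adjusted p = 2.5e-04), while CCND2, cyclin D2, read 9.64, 9.61 and 9.52 in FaDu and 12.64, 12.78 and 12.93 in SQ20B and was 9.14-fold higher in SQ20B. CDKN2B, the CDK inhibitor p15, was 4.42-fold higher in SQ20B. These 2 were the 2-fold members among 22 measured (9.09%, against 17.5% over all genes), with 0 toward FaDu. CDKN2A, the inhibitor p16, read 8.59, 8.54 and 8.56 in FaDu and 8.64, 8.58 and 8.49 in SQ20B, overlapping levels with a difference of -0.01 ± 0.08 (adjusted p = 0.95). The D-cyclin partner CDK6 was higher in SQ20B by a called -0.88 ± 0.12, as were CDC25A (-0.81 ± 0.11), CCNE1 (-0.59 ± 0.10), CDKN3 (-0.53 ± 0.09), CDK4 (-0.37 ± 0.08) and MTAP (-0.28 ± 0.08). E2F1 (0.55 ± 0.15), E2F3 (0.43 ± 0.10), RBL2 (0.33 ± 0.09), CDKN2D (0.33 ± 0.11) and CDK2 (0.26 ± 0.09) were called higher in FaDu. Leaving out 1 array ended the call of E2F1 (0.44 without FaDu replicate 1, 0.45 without SQ20B replicate 1) and of RBL2 (0.29 without SQ20B replicate 2). It also ended that of MTAP (-0.27 to -0.25 without FaDu replicates 2 or 3 or SQ20B replicates 1 or 2) and of CDKN2D (0.28 to 0.31 without FaDu or SQ20B replicates 1 or 2). CDK2 was called in full and without FaDu replicate 2, and not without any 1 of the other 5 arrays (0.20 to 0.29). CCND3, CDKN1A, CDKN1B, CDKN1C, RB1, RBL1 and E2F2 did not pass the test, with differences from -0.18 ± 0.09 for E2F2 to 0.10 ± 0.09 for RB1.

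Around CCND1 on chromosome 11, in the band 11q13, 15 genes were measured, CCND1 included. Of these, 8 were at least 2-fold higher in FaDu and 1 in SQ20B, with a median difference of 1.35. Cortactin (CTTN), an actin-binding protein of invasive protrusions, read 12.79, 12.84 and 12.79 in FaDu and 10.65, 10.66 and 10.63 in SQ20B, a difference of 2.16 ± 0.08 (limma adjusted p = 4.7e-07), and its other probes gave 2.24 and 3.71. PPFIA1, a liprin scaffold, read 13.04, 12.99 and 12.96 in FaDu and 10.61, 10.46 and 10.66 in SQ20B, 5.36-fold higher in FaDu. Neither gene's groups overlapped. The channel TPCN2 (7.39-fold), the scaffold SHANK2 (at least 2.99-fold), the carnitine palmitoyltransferase CPT1A (4.31-fold), LTO1 (3.55-fold), the death adaptor FADD (3.41-fold) and the chloride channel ANO1 (2.54-fold) were the other members at least 2-fold higher in FaDu. The other SHANK2 probe, detected on 0 FaDu and 2 SQ20B arrays, gave -0.51 and was not called. MYEOV, in the same group, was the exception and was 8.22-fold higher in SQ20B, at 5.99, 6.18 and 6.32 in FaDu against 9.20, 9.20 and 9.21 in SQ20B. IGHMBP2 (0.81 ± 0.14) and FGF19 (0.52 ± 0.16) were called higher in FaDu and MRPL21 (-0.29 ± 0.09) higher in SQ20B. FGF19 was not called without FaDu replicates 1 or 2 or SQ20B replicate 1 (0.38 to 0.51), and MRPL21 not without FaDu replicate 1 or SQ20B replicates 2 or 3 (-0.28 to -0.25). NADSYN1 (0.22 ± 0.09) and DHCR7 (0.01 ± 0.10) did not pass the test. DNA copy number was not measured on these arrays.

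**Figure D3:**
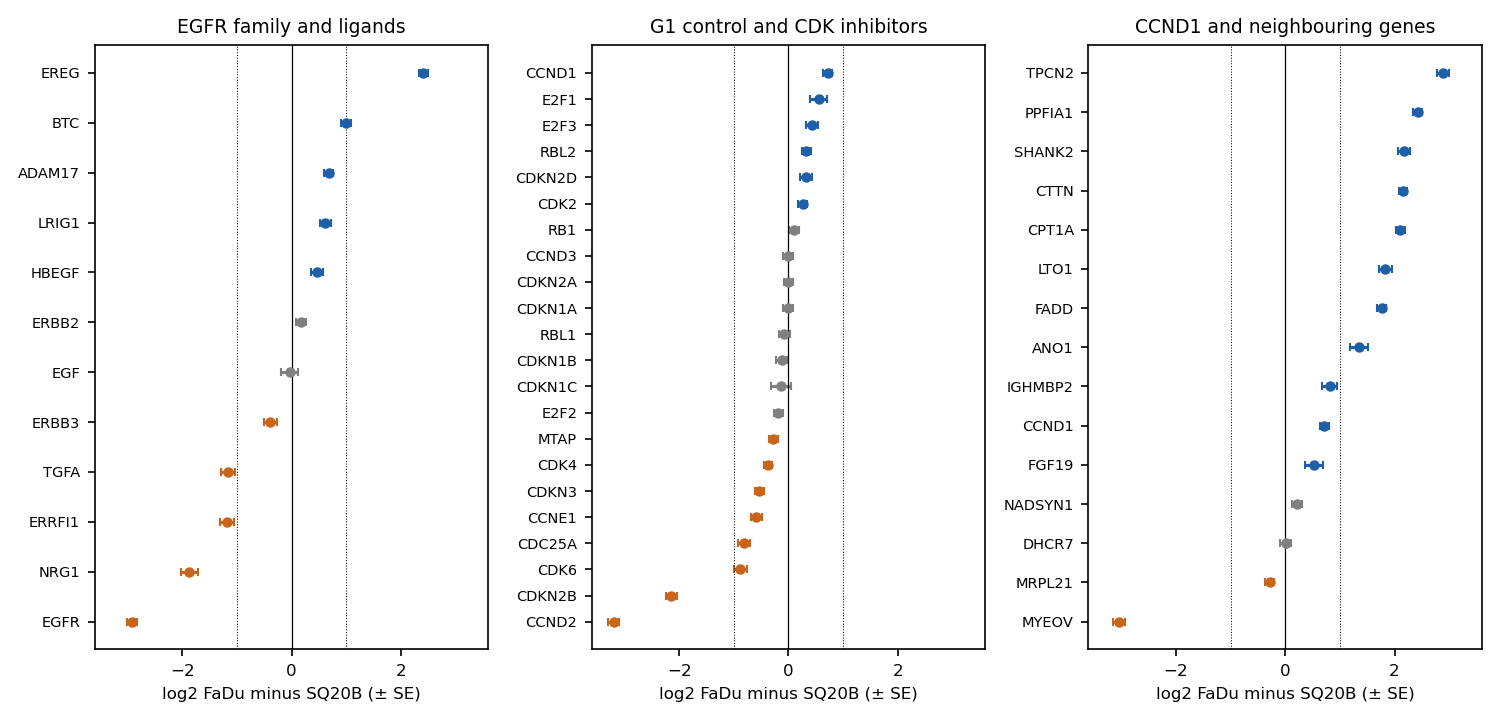
Difference between FaDu and SQ20B on the log2 scale ± SE (horizontal axis, 3 arrays of each line) for every measured member of 3 gene groups. Blue points were called higher in FaDu, orange points higher in SQ20B and grey points were not called, with dotted lines at 2-fold. EGFR, CCND2 and MYEOV lie near -3, while 8 neighbours of CCND1 lie above 1. For EREG, BTC, FGF19 and SHANK2, whose brightest probe was not detected in SQ20B, the point is a fitted value and the fold of that probe has only a lower bound.

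Of 24 measured targets of YAP, 13 were at least 2-fold higher in SQ20B and 0 in FaDu, with a median difference of -1.16. Without the size criterion, 17 were called higher in SQ20B and 3 in FaDu. AJUBA, a LIM protein that binds the kinase LATS, read 5.02, 4.52 and 4.82 in FaDu and 8.93, 9.07 and 8.99 in SQ20B, a difference of -4.21 ± 0.13 (limma adjusted p = 2.9e-07). ANKRD1, a nuclear ankyrin repeat protein, was detected on no FaDu array, where it read 4.34, 4.48 and 4.45, and read 7.91, 8.37 and 8.84 in SQ20B, at least 11.5-fold higher in SQ20B. Its SQ20B arrays were the more scattered, over nearly 1 log2 unit, yet all lay above every FaDu array. CRIM1, a membrane protein that binds BMPs, was 8.94-fold higher in SQ20B, and AXL is on this list too. CCN2, a matricellular growth factor that falls outside the naming rule and is shown for its promoter, read 7.29, 6.96 and 7.32 in FaDu and 8.49, 8.63 and 8.69 in SQ20B, 2.67-fold higher in SQ20B.

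The letters of a TEAD core, GGAATG, were searched on both strands in the same windows. The promoters of ANKRD1 and CCN2 are shown as examples that hold several matches, in capitals. That of the list member NUAK2 holds 1 match on each strand and is not shown.
ANKRD1, chr10:90921088-90921337 (minus strand): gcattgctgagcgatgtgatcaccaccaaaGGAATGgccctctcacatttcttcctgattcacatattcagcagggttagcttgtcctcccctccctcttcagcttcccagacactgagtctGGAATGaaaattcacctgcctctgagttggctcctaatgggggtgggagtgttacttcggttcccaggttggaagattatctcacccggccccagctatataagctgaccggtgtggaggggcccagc
CCN2, chr6:131951373-131951622 (minus strand): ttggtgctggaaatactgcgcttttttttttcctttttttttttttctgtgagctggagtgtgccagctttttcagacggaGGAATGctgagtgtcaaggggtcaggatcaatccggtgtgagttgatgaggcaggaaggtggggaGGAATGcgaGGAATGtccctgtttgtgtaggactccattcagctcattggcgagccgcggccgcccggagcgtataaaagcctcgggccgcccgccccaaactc
The motif was present in 5 of 17 YAP list members with a promoter (29.4%), in 963 of 10277 tested genes (9.37%) and in 3248 of 27305 promoters (11.9%). It was present in 4 of 9 members at least 2-fold higher in SQ20B (44.4%) and in 1 of 8 of the others (12.5%). These are shares of few promoters.

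In the TGF-beta and BMP pathway, 3 of 25 measured genes were at least 2-fold higher in FaDu and 9 in SQ20B. SMAD4, the mediator that the receptor-activated SMADs share, was detected on no FaDu array. It read 4.40, 4.29 and 4.41 in FaDu and 8.72, 8.80 and 8.82 in SQ20B, at least 15.3-fold higher in SQ20B (limma adjusted p = 5.0e-08). FaDu is known as a line without SMAD4. THBS1, a matrix protein that can activate latent TGF-beta and is a known target, was 18.9-fold higher in SQ20B, and the ligand subunit INHBB is described above. In FaDu the ligand BMP7 (at least 7.76-fold), the BMP target ID1 (5.32-fold) and the repressor SKIL (2.63-fold) were higher. Whether SMAD4 bears on the other members was not tested.

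Of 26 measured mesenchymal and matrix genes, 10 were at least 2-fold higher in SQ20B and 2 in FaDu. The ecto-nucleotidase NT5E differed by -3.87 ± 0.09, or 14.6-fold, the matrix protein TGFBI by -3.75 ± 0.09, or 13.4-fold, and the actin-binding TAGLN by -2.60 ± 0.15, or 6.05-fold, all higher in SQ20B. COL6A1, a collagen VI chain, and the transcription factor TWIST2 were higher in FaDu, 2.42-fold and at least 1.78-fold, and TWIST2 counts among the 2 by its fitted difference. Among matrix metalloproteinases and the plasminogen system, 3 of 16 were at least 2-fold higher in FaDu and 7 in SQ20B. MMP12, an elastase, read 6.03, 6.03 and 5.82 in FaDu and 11.09, 11.08 and 10.87 in SQ20B, 33.2-fold higher in SQ20B. The inhibitors of these enzymes went with it. TIMP2 was 24.4-fold higher in SQ20B, and TIMP3, detected on no FaDu array, read 4.36, 4.41 and 4.26 in FaDu and 8.58, 8.53 and 8.55 in SQ20B, at least 13-fold higher in SQ20B. The collagenase MMP1 (2.41-fold), the stromelysin MMP10 (2.13-fold) and the protease inhibitor SERPINE2 (3.39-fold) were higher in FaDu.

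Keratins divided the lines. Of 10 measured keratins of stratified epithelium, 4 were at least 2-fold higher in FaDu and 2 in SQ20B, while 7 of 17 on the array did not pass the detection filter. KRT14, the basal keratin, read 7.83, 7.74 and 7.93 in FaDu and 4.33, 4.62 and 4.38 in SQ20B, where no array detected it, at least 7.56-fold higher in FaDu (limma adjusted p = 2.8e-07). KRT16, a keratin of wounded and hyperproliferative epithelium, read 10.15, 10.00 and 9.88 in FaDu and 6.07, 5.90 and 5.86 in SQ20B, 16.8-fold higher in FaDu. KRT4, a keratin of the upper layers of mucosa, was at least 8.75-fold higher in FaDu, but KRT13, its usual partner there, went the other way at 7.22, 7.27 and 7.26 in FaDu and 10.05, 9.85 and 9.67 in SQ20B, 6.08-fold higher in SQ20B. KRT80 (2.93-fold) and, among 3 measured keratins of simple epithelium, KRT7 (4.33-fold) were also higher in SQ20B.

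Of 13 measured desmosome and gap junction genes, 5 were at least 2-fold higher in FaDu and 0 in SQ20B. Without the size criterion 8 and 1 were called, where the shares over all genes were 30.6% and 27.6%. PKP1, a desmosomal plaque protein of stratified epithelium, read 8.46, 8.18 and 8.25 in FaDu and 4.48, 4.42 and 4.43 in SQ20B, where no array detected it, at least 10.4-fold higher in FaDu. The connexins GJB2 (5.52-fold) and GJA1 (at least 3.02-fold) were higher in FaDu too. Of 22 epithelial adhesion and tight junction genes, 2 were at least 2-fold higher in FaDu and 4 in SQ20B. CXADR (6.78-fold), cingulin CGN (2.87-fold) and CLDN1 (2.85-fold), all proteins of tight junctions, were higher in SQ20B, and PATJ (2.97-fold) and RAB25 (2.17-fold) in FaDu. Of 17 hemidesmosome, laminin and integrin genes, 1 passed at 2-fold (5.88%, against 17.5% over all genes), the integrin ITGA2 (2.02-fold, higher in SQ20B).

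Of 38 genes of the cornified envelope and late differentiation on the array, 18 were measured. TGM1, the transglutaminase that cross-links the envelope, was 5.28-fold higher in FaDu and the protease inhibitor CSTA 2.41-fold. These were the 2 members at 2-fold (11.1%, against 17.5% over all genes), with 0 toward SQ20B. Without the size criterion, 7 were called higher in FaDu and 3 in SQ20B (30.6% and 27.6% over all genes). Of 8 measured kallikrein-related peptidases, 4 were at least 2-fold higher in FaDu and 1 in SQ20B. KLK6 read 12.68, 12.53 and 12.61 in FaDu and 10.04, 10.02 and 10.13 in SQ20B, 5.83-fold higher in FaDu, followed by KLK10 (4.60-fold) and KLK9 (at least 2.06-fold), while KLK7, which degrades desmosomes in skin, was at least 2.31-fold higher in SQ20B. Squamous lineage factors and the Notch pathway were split, with 3 of 28 higher in FaDu and 4 in SQ20B at 2-fold. PAX9, a factor of pharyngeal pouch and oral epithelium, read 8.56, 8.17 and 8.03 in FaDu and 4.71, 4.89 and 4.62 in SQ20B, at least 10.1-fold higher in FaDu. The differentiation factor KLF4 was 8.76-fold and the receptor NOTCH3 2.57-fold higher in FaDu, and the stem cell factor SOX2 (3.72-fold), the Notch ligand JAG1 (3.43-fold) and FOXE1 (2.18-fold) in SQ20B.

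Of 24 measured NF-kB target cytokines and regulators, 6 were at least 2-fold higher in FaDu and 1 in SQ20B. CXCL8, the neutrophil chemokine interleukin 8, read 9.11, 9.24 and 9.18 in FaDu and 6.18, 6.43 and 6.03 in SQ20B, 7.81-fold higher in FaDu. Complement factor B (CFB, 4.60-fold) and the death ligand TNFSF10 (2.99-fold) were higher in FaDu, and the iron-carrier protein LCN2 (3.68-fold) in SQ20B. Of 20 measured genes of the interleukin 1 and 6 families, 3 were at least 2-fold higher in FaDu and 3 in SQ20B. The agonists IL1A (6.99-fold) and IL1B (4.82-fold) and the antagonist IL1RN (4.47-fold) were higher in FaDu. The signalling parts IL1R1 (at least 2.17-fold), the kinase IRAK1 (2.60-fold) and the interleukin 6 co-receptor IL6ST (2.98-fold) were higher in SQ20B. Of 22 antigen presentation genes, 3 were at least 2-fold higher in FaDu and 0 in SQ20B (13.6%, against 17.5% over all genes in either direction). The 3 were the class I genes HLA-F (7.28-fold), HLA-C (3.37-fold) and HLA-B (2.80-fold). These genes are alike in sequence and polymorphic, and how far the probes tell them or their alleles apart was not tested. Among 26 cell death regulators, 5 were higher in FaDu and 3 in SQ20B at 2-fold. The death ligand TNFSF10 was higher in FaDu, with the survival protein BCL2L2 (3.44-fold), FADD and the inflammatory caspase CASP1 (3.37-fold). Its receptors TNFRSF10A (at least 2.88-fold) and TNFRSF10D (at least 1.91-fold, counted by its fitted difference) were higher in SQ20B, with the BH3-only gene BAD (2.05-fold).

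Of 28 measured NRF2 targets and aldo-keto reductases, 8 were at least 2-fold higher in FaDu and 1 in SQ20B. ALDH3A1, an aldehyde dehydrogenase of the cornea and upper airway, read 11.16, 10.94 and 11.12 in FaDu and 7.70, 7.58 and 7.55 in SQ20B, 11-fold higher in FaDu. AKR1C3, a ketosteroid reductase, was detected on no SQ20B array and was at least 5.62-fold higher in FaDu, and GPX2 is described above. The exporter ABCC2 was 4.25-fold higher in SQ20B. Of 24 drug metabolism and efflux genes, 3 were higher in FaDu and 6 in SQ20B at 2-fold. The efflux pump ABCG2 was at least 9.15-fold higher in SQ20B, with ABCC4 (4.81-fold) and the fluoropyrimidine-degrading DPYD (5.0-fold), and the glutathione transferases GSTM1 (2.68-fold) and GSTP1 (2.18-fold) and the pump ABCB1 (at least 1.64-fold, counted by its fitted difference) were higher in FaDu. GSTM1 is close in sequence to other GSTM genes, and the specificity of its probes was not tested. Among 17 genes of retinoid metabolism, 2 were higher in FaDu and 5 in SQ20B at 2-fold. The retinoic acid-degrading enzymes CYP26B1 (13.5-fold) and CYP26A1 (4.51-fold) were higher in FaDu, and TGM2, the retinol dehydrogenase RDH10 (3.17-fold) and RBP7 (at least 2.39-fold) in SQ20B.

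Positional and germline genes differed in both directions. Of 38 measured HOX genes and positional factors, 10 were at least 2-fold higher in FaDu and 4 in SQ20B. HOXD11 read 8.58, 8.52 and 8.58 in FaDu and 5.10, 4.75 and 4.70 in SQ20B, where 1 of 3 arrays detected it. It was 13-fold higher in FaDu, followed by HOXB2 (at least 5.34-fold) and HOXC4 (5.30-fold). EYA1, a phosphatase and cofactor of the branchial arches, was at least 7.82-fold higher in SQ20B, with HOXC13 (3.48-fold) and IRX5 (3.06-fold). Cancer-testis antigens, germline genes that tumours can express, differed both ways, with 9 of 21 measured members at least 2-fold higher in SQ20B and 3 in FaDu. MAGEA12 read 4.28, 4.27 and 4.33 in FaDu, where no array detected it, and 9.40, 9.37 and 9.68 in SQ20B, at least 24.9-fold higher in SQ20B. MAGEA6 (23.2-fold) and MAGEA3 (at least 13-fold) were higher in SQ20B as well, although another MAGEA6 probe gave -0.34 and was not called (limma adjusted p = 0.0739). These 3 genes are near copies and the probes may share signal, which was not tested. MAGEA4 went the other way, at 11.06, 11.10 and 11.34 in FaDu and 6.44, 6.41 and 6.57 in SQ20B, 25.8-fold higher in FaDu. PRAME (13.8-fold) and LAGE3 (2.18-fold) were higher in FaDu.

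Of 16 measured secretory genes of mucosa and glands, 4 were higher in each line at 2-fold. The disulfide isomerase AGR2 (21.0-fold), the mucin MUC16 (5.92-fold) and PLAC8 were higher in SQ20B, and CLCA2 (at least 2.14-fold), the mucin MUC4 (at least 2.20-fold) and the water channel AQP3 (2.62-fold) in FaDu. MUC4 rests on its brightest probe. Its other probes gave -0.28, detected on 2 FaDu and 3 SQ20B arrays, and 0.006, and were not called. In the WNT pathway, 4 of 30 were higher in FaDu and 7 in SQ20B. The ligand WNT3A (at least 5.91-fold), the secreted DKK3 (8.08-fold) and the receptor FZD2 (4.40-fold) were higher in SQ20B, and the transcription factor LEF1 (at least 3.42-fold) and the receptors FZD6 (2.42-fold) and FZD1 (2.22-fold) in FaDu.

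Metabolic and stress groups were mixed. Of 33 measured hypoxia and glycolysis genes, 8 were at least 2-fold higher in FaDu and 2 in SQ20B. NDRG1 (5.25-fold), the aldolase ALDOC (4.22-fold) and VEGFA were higher in FaDu, against the glucose transporter SLC2A3 (7.15-fold) and the peptide hormone ADM (5.92-fold) in SQ20B. Of 29 genes of ATF4 and the unfolded protein response, 6 were higher in FaDu and 5 in SQ20B at 2-fold. The chaperone HSPA5 (2.73-fold) and the transcription factors DDIT3 (2.30-fold) and XBP1 (2.28-fold) were higher in SQ20B, and the lipoprotein receptor VLDLR (at least 2.18-fold), CRELD2 (3.17-fold) and the cystine transporter SLC7A11 (2.53-fold) in FaDu. Of 24 cholesterol synthesis genes, 1 was higher in FaDu (STARD4, 2.22-fold) and 3 in SQ20B (ACAT2, 2.36-fold; NSDHL, 2.18-fold; MVD, 2.01-fold). Of 39 cell cycle genes, 0 were at least 2-fold higher in FaDu and 2 in SQ20B, the ribonucleotide reductase subunit RRM2 (2.81-fold) and the centromeric histone CENPA (2.48-fold), with a median difference of -0.27. Without the size criterion, 7 cell cycle genes were called higher in FaDu and 18 in SQ20B, where the shares over all genes were 30.6% and 27.6%. Of 24 p53 targets, RRM2B (3.23-fold) was higher in FaDu and TP53I3 (4.51-fold) in SQ20B at 2-fold. The 2-fold share in either direction was 16.7% for cholesterol synthesis, 5.13% for cell cycle genes and 8.33% for p53 targets. All 3 were below the 17.5% over all genes. None of 6 measured metallothioneins passed at 2-fold in limma, and 1 was called without the size criterion.

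Runs of neighbouring genes were ranked by their median difference. Along the RefSeq gene order, 12899 tested genes were placed, and the median difference was taken over each of 12577 runs of 15 consecutive genes. These medians ranged from -0.97 at the 1st percentile to 0.99 at the 99th. The runs furthest toward FaDu were BRD10 to CCDC171 on chromosome 9 (median 1.60, 13 of 15 genes at least 2-fold), LGMN to PPP4R4 on chromosome 14 (1.43, 12 genes) and PPARA to PANX2 on chromosome 22 (1.36, 9 genes). The chromosome 9 run holds GLDC, the palmitoyltransferase ZDHHC21 (10.8-fold) and TTC39B (6.17-fold). The chromosome 14 run holds IFI27, PPP4R4 (at least 4.06-fold) and the apoptosis modulator MOAP1 (4.04-fold), and the chromosome 22 run GRAMD4 (10.3-fold), the channel PANX2 (6.42-fold) and GTSE1 (4.58-fold). No member of these 3 runs was at least 2-fold higher in SQ20B. The runs were picked for extreme medians, so a lean of most genes to 1 side follows from the choice. Whether neighbouring genes differed together more than genes in a shuffled order was not tested.

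The runs furthest toward SQ20B were BRF2 to ADAM9 on chromosome 8 (median -1.70, 11 genes), INTS5 to STX5 on chromosome 11 (-1.41, 11 genes) and USP51 to LAS1L on chromosome X (-1.38, 8 genes). RAB11FIP1 (8.85-fold), TACC1 (7.41-fold) and the metalloprotease ADAM9 (7.31-fold) led the chromosome 8 run, and UQCC3 (4.95-fold), INTS5 (3.65-fold) and STX5 (2.99-fold) the chromosome 11 run, in which all 15 genes were called higher in SQ20B. The chromosome X run holds UBQLN2 and NBDY, which neighbour each other, and SPIN3 (at least 6.38-fold), all 3 detected on no FaDu array. The same runs had medians of 1.60, 1.23 and 1.68, and of -1.15, -1.34 and -1.40, between the resistant cultures.

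**Figure D4:**
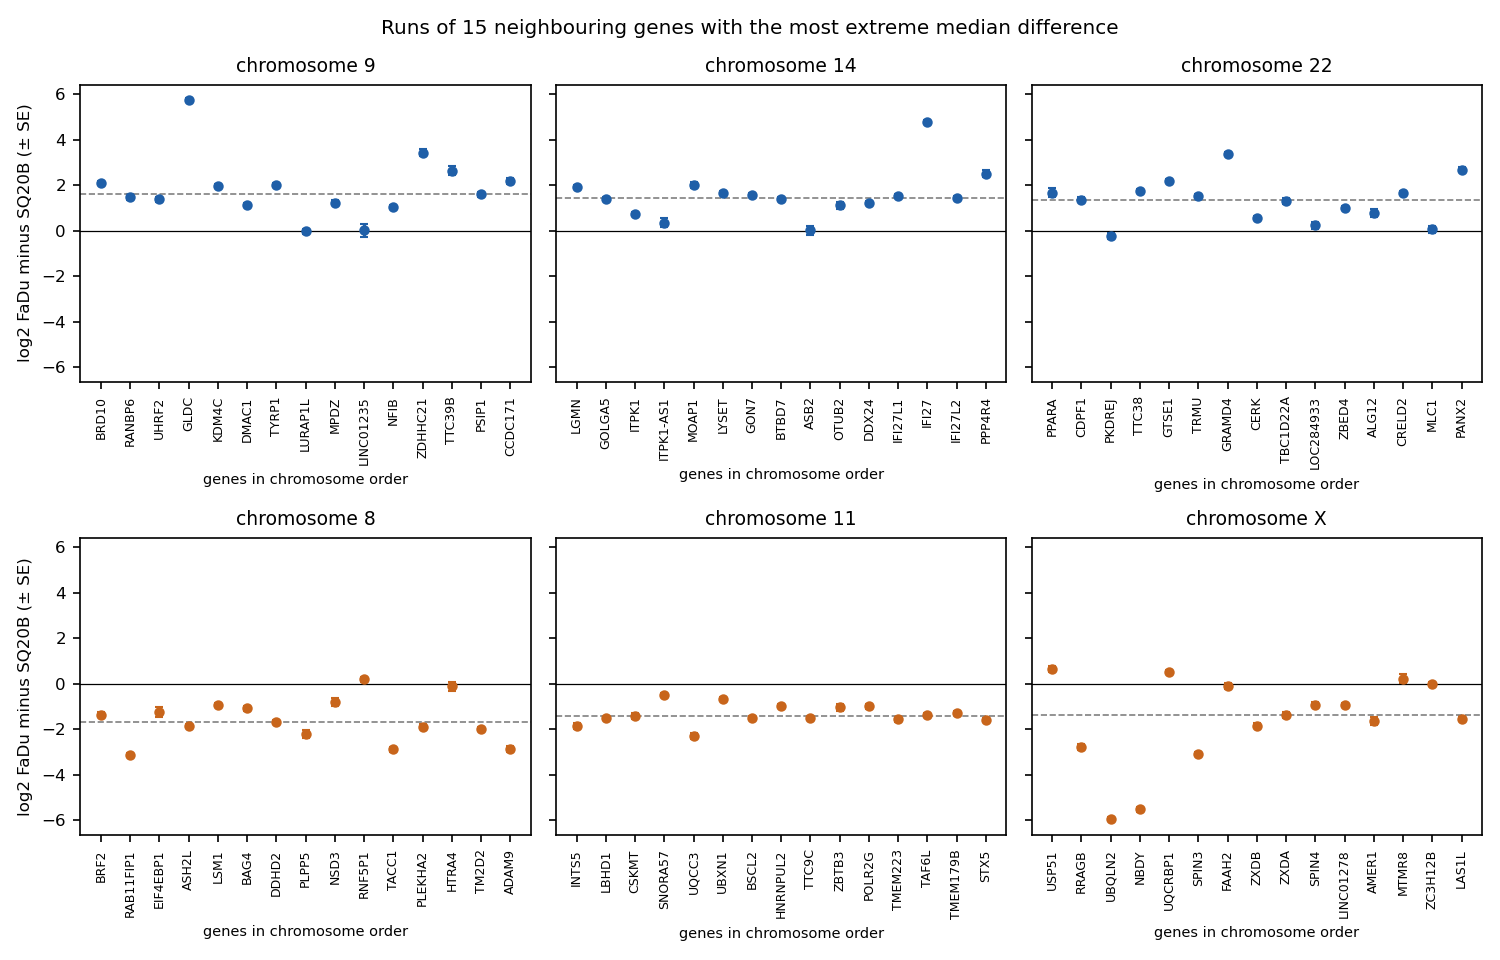
Difference between FaDu and SQ20B on the log2 scale ± SE (vertical axis, 3 arrays of each line) for each gene of the 6 runs of 15 neighbouring genes, in chromosome order, with the run's median as a dashed line. In the upper panels most genes lie above 0 and in the lower panels most lie below it. That follows from choosing the runs by their median.

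The comparison was repeated between the resistant cultures, on arrays that entered the baseline comparison only through the shared normalization, the detection filter and the choice of the brightest probe. There, 2782 genes (21.5%) differed at least 2-fold, 1302 (10.1%) higher in FaDu and 1480 (11.4%) higher in SQ20B. Of the 2268 baseline genes, 1464 (64.6%) differed at least 2-fold the same way, 41 (1.81%) the opposite way and 763 neither. Of the 1132 genes higher in FaDu, 691 (61.0%) were found again and 33 were opposite. Of the 1136 higher in SQ20B, 773 (68.0%) were found again and 8 were opposite. EGFR differed by -2.93 ± 0.09 between the resistant cultures (limma adjusted p = 1.9e-08) and AXL by -2.65 ± 0.11. SMAD4, detected on no resistant FaDu array either, was at least 17.6-fold higher in resistant SQ20B. Of the 24 largest baseline differences, 21 were found again and IFI44, IFI27 and TGM2 were not.

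The interferon list as a whole did not keep its direction, though its 4 genes with the largest baseline differences stayed higher in FaDu. Between the resistant cultures 3 of its 38 members were at least 2-fold higher in FaDu and 10 in SQ20B, with a median of -0.64 where the parental median was 1.40. IFI44 averaged 11.54 in parental FaDu and 6.13 in parental SQ20B, and 11.24 and 10.79 in the resistant cultures. IFI27 averaged 9.08 and 4.31 in parental cells and 13.21 and 12.40 in resistant cells, so that both resistant cultures stood above both parental ones. Between the resistant cultures IFI44 differed by 0.45 ± 0.11 and IFI27 by 0.81 ± 0.12. HERC5 differed by 1.11 ± 0.11 and OASL by 1.78 ± 0.10, and all 4 were called. The YAP list kept its direction, with 1 of 24 higher in FaDu, 14 in SQ20B and a median of -1.25. CCND1 and its neighbours kept theirs, with 10 of 15 higher in FaDu, 1 in SQ20B and a median of 2.00. The 2 comparisons use different arrays of the same lines.

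**Figure D5:**
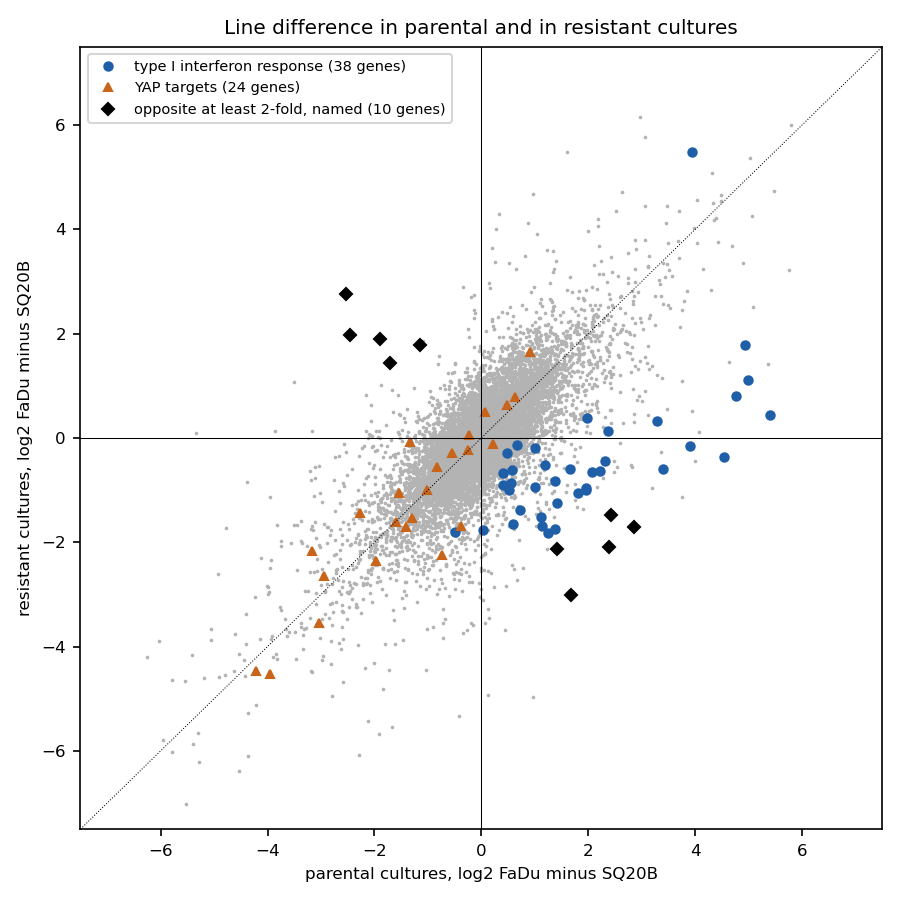
Difference between FaDu and SQ20B on the log2 scale in parental cultures (horizontal axis) and in resistant cultures (vertical axis) for every tested gene, 3 arrays in each group, with the diagonal dotted. Most YAP targets (triangles) lie near the diagonal at the lower left. Most interferon genes (circles) lie to the right of 0 and below the diagonal, and the 10 named opposite genes (diamonds) lie in the other quadrants.

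Among the genes that differed at least 2-fold in opposite directions, those higher in FaDu at baseline included the chemokine receptor ACKR3, at 2.87 ± 0.11 in parental and -1.70 ± 0.09 in resistant cultures. SPOCK1, a matrix proteoglycan, gave 2.42 ± 0.09 and -1.48 ± 0.12. GSTM1 gave 1.42 ± 0.10 and -2.12 ± 0.10. SIRPA and SRPX, detected on no parental SQ20B array, were at least 2.69-fold and at least 3.66-fold higher in parental FaDu and gave -3.01 ± 0.12 and -2.10 ± 0.11 in resistant cultures. Those higher in SQ20B at baseline included VGLL1, a TEAD cofactor, at -2.53 ± 0.11 and 2.76 ± 0.12, and the YAP-binding angiomotin AMOT at -2.46 ± 0.09 and 1.98 ± 0.12. SOX2 gave -1.90 ± 0.11 in parental cultures and, detected on no resistant SQ20B array, was at least 2.9-fold higher in resistant FaDu. SPRY1 (-1.71 ± 0.11 and 1.45 ± 0.15) and the receptor ADGRF1 (-1.15 ± 0.09 and 1.79 ± 0.11) completed the 10 named, 5 in each direction by the smaller of both differences. RNA came from whole cultures, so fewer cells with a transcript and less of it in each cell cannot be told apart.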

How the data were processed

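Biotinylated cRNA was made from total RNA of 3 parental FaDu and 3 parental SQ20B samples, per the labels' protocols, and measured on Illumina beadchips. The authors deposited intensity values that are linear bead averages, neither background-corrected nor normalized, as the values show. The detection p-value deposited beside each is in steps of 770 control beads. The submitters' processing notes name GenomeStudio without a version. The authors also deposited processed intensity values for these arrays (median 7.26 to 7.30 per array, 28.3% to 28.4% negative). They ranked probes as the bead averages do and served as an alternative, and no source used here states how they were made.

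The function neqc of limma 3.58.1 (R 4.3.3) corrected the background (normexp from the detection p-values, offset 16), with quantile normalization and log2 over the 12 arrays of FaDu and SQ20B, parental and resistant. Median bead signals were 105.7 to 116.0 on the 6 parental arrays, and the number of arrays limits the precision. The platform annotation gave 1 symbol for 30113 of 47231 probes and several for 8, and 17110 are unnamed here. Through the Entrez identifier 30074 were checked against RefSeq and 0 changed. Probes detected on fewer than 3 of the 12 arrays were left out. The parental lines were fitted with lmFit and eBayes on the 6 arrays, with 4 residual degrees of freedom. The resistant arrays were fitted alone in the same way, and the difference between the 2 line contrasts was an interaction in a fit of all 4 groups. A gene was called at an adjusted p under 0.05, and at least 2-fold with an absolute log2 difference of at least 1. The fit was tested on simulated data.

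The members and the 36 lists (1020 entries, 753 distinct genes measured) were chosen with earlier results of these data known. Genes were named by rule: the 12 largest non-overlapping differences per direction, up to 3 2-fold genes per list and direction, all measured members of the EGFR, G1 and CCND1 lists, the 5 largest opposite genes per direction, and the runs of neighbouring genes. Groups and replicate numbers came from the sample titles. The numbers were not used as pairs. Alternatives changed the background correction, normalization, filter, choice of probe, estimate of spread, values, replicate block and arrays. Genome coordinates other than those of the RefSeq promoters are not printed, since the files name no build.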

Additional observations from a re-analysis of the deposited data

Results flagged for a closer look

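The difference between FaDu and SQ20B was not the same in parental and resistant cultures for 4622 of 12934 genes (35.7%), by an interaction test in limma with an adjusted p under 0.05. Each value below is that interaction on the log2 scale, the line difference in resistant cultures minus the line difference in parental cultures, ± SE, with 3 arrays in each of 4 groups. It was tested in the same fit for all genes.

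Among the largest baseline differences, the interaction was -4.96 ± 0.13 for IFI44 (limma adjusted p = 2.9e-10), -3.96 ± 0.14 for IFI27 and 5.42 ± 0.11 for TGM2. TGM2 averaged 5.22 in parental FaDu, 10.55 in parental SQ20B, 8.40 in resistant FaDu and 8.31 in resistant SQ20B, so that both resistant levels lay between the parental ones. Some genes were higher in FaDu between the parental cultures and higher in SQ20B between the resistant cultures. For these it was -4.70 ± 0.15 for SIRPA, -4.56 ± 0.14 for ACKR3, -4.49 ± 0.17 for SRPX, -3.90 ± 0.15 for SPOCK1 and -3.54 ± 0.14 for GSTM1. Among genes with the opposite pattern, it was 5.29 ± 0.16 for VGLL1, 4.44 ± 0.15 for AMOT, 3.80 ± 0.15 for SOX2, 3.16 ± 0.20 for SPRY1 and 2.94 ± 0.14 for ADGRF1. SOX2 averaged 8.04 in parental and 4.39 in resistant SQ20B, against 6.14 and 6.30 in FaDu. IFI27, SIRPA and SRPX were detected on no parental SQ20B array and SOX2 on no resistant SQ20B array, so the interactions of these 4 genes are fitted values against background and not exact sizes.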

How the results depend on the processing

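Of 213 named genes called in the comparison, 204 kept their direction and their call under all 18 alternatives, and no called gene changed direction. Of 4047 gene values under alternatives, 32 lost the call and 2 gained it. Without background correction the count at 2-fold or more was 1037 in place of 2268, 469 higher in FaDu and 568 higher in SQ20B, the list members past it were 167 in place of 261, and 662 in place of 1464 were found again in resistant cultures. With an offset of 50, 1520 genes were at 2-fold or more, 721 higher in FaDu in place of 1132 and 799 higher in SQ20B in place of 1136. The list members past it were then 206, and 982 genes were found again. Omitting the correction leaves the background in the signal, and the larger offset adds a constant of 50 in place of 16 after the same correction. Both settings so shrink log2 differences of dim probes. Of 1296 list counts, 55 moved by over 1.5 times, most of them under these settings.

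Leaving out 1 array at a time gave 6906 to 7080 called genes (3613 to 3698 higher in FaDu, 3290 to 3389 in SQ20B) and 2275 to 2299 at 2-fold or more (1124 to 1144 and 1145 to 1174). It gave 258 to 267 list members, 1448 to 1463 found again and 4092 to 4394 interactions. With the replicate number as a block, 7270 genes were called and 2268 at 2-fold or more, and CDK2 and CDKN2D lost their calls. The numbers did not pair the arrays: deviations with the same number correlated at -0.02 to 0.02 and with other numbers at -0.03 to 0.04, and an array correlated best with its own number in 2 of 6 cases. Probes of the same gene were called in opposite directions for 98 genes, including 11 of the 689 genes with several probes that differed at least 2-fold.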

Other observations

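Several lists gave other counts between the resistant cultures than between the parental ones, here set side by side without a test of the list. NF-kB targets had 6 of 24 members at least 2-fold higher in FaDu and 1 in SQ20B at baseline, and 13 and 0 between the resistant cultures, with medians of 0.50 and 1.06. Cell cycle genes had 0 and 2 of 39 at baseline, and 12 and 0 between the resistant cultures, with medians of -0.27 and 0.67. Cholesterol synthesis genes had 1 and 3 of 24, and then 7 and 0. Mesenchymal and matrix genes had 2 and 10 of 26, and then 0 and 14, with medians of -0.42 and -1.40. Over all genes 10.1% were higher in FaDu and 11.4% in SQ20B at that size in the resistant cultures, against 8.75% and 8.78% at baseline.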
